A study of Mus musculus with 14 samples.

Results

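The genes described here are those that carry out and regulate RNA splicing, together with the RNA-binding protein families around them. They were chosen by gene symbol: the SR proteins with LUC7-like and U2AF proteins, the CLK kinases, the hnRNP and PTBP proteins, the snRNP and Sm/LSm proteins, the SF3 and PRPF spliceosome proteins, the CELF, ELAVL, MBNL, NOVA and RBFOX regulators, the RBM proteins with CIRBP, and the DDX and DHX helicases. Of 7756 genes in the deposited table, 98 carried such a symbol, and 97 of the 98 were among the 7338 genes tested. By the study's methods, the table was narrowed to protein-coding genes that passed a low-signal cutoff and then to those whose processed signal, set relative to control, reached a minimum size. Shares given below over all genes tested are therefore shares of a set already selected for change, and a family member outside the table need not be weakly expressed. The exception among the 98 was Rbm38, whose mean count in the SH group was under the limit of 40 that every group had to reach. Its normalized counts were 40.95, 68.57, 58.88 and 76.17 in the control libraries, 36.57, 48.93, 57.25, 29.63 and 42.57 in the IH libraries, and 48.92, 46.1, 23.09, 16.24 and 34.62 in the SH libraries. The ranges of the groups overlapped.

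Messenger RNA was sequenced from the hippocampus of male C57BL/6J mice, 8 weeks old at the start. The control group (n = 4) breathed 21% oxygen for 28 days. For 8 h per day over the same 28 days, the intermittent hypoxia (IH) group (n = 5) was cycled between 10% and 21% oxygen every 2 minutes, and the sustained hypoxia (SH) group (n = 5) was held at 10% oxygen. Per the study's methods, mice of the main experiment went through behavioural tests before tissue collection. The sequenced control tissue came from a preliminary experiment whose conditions the methods call identical (strain, age and time in housing). Whether those control mice had the behavioural tests is not stated. A difference from control therefore cannot be told apart from a difference between experiments. The IH vs. SH comparison lies within the main experiment.

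Splicing removes introns from the primary transcript and joins the exons. Small nuclear ribonucleoproteins (snRNPs), each built on a ring of Sm or LSm proteins, assemble on the intron with the SF3 and PRPF proteins, and helicases of the DEAD-box and DEAH-box families drive the rearrangements. SR proteins mostly favour and hnRNP proteins mostly oppose the use of an exon, CLK kinases phosphorylate SR proteins, and NOVA, RBFOX, CELF, MBNL and ELAVL proteins set exon choice in neurons. Many of these genes control their own messages through alternative exons, which a count per gene does not show.

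Promoters of the genes that differed between IH and SH, and of Cirbp, the cold-inducible RNA-binding protein, are printed first so that they can be read beside the counts. Each is the 250 bases before the first listed start site in RefSeq (mouse build GRCm38.p6), written 5′ to 3′ on the gene's strand. Capitals mark TCCCCGCC or its reverse complement GGCGGGGA, the letters of a mild-cold response element described for Cirbp, and ACGTG or its reverse complement CACGT, the core of a hypoxia response element.
Cirbp, chr10:80167589-80167838, plus strand: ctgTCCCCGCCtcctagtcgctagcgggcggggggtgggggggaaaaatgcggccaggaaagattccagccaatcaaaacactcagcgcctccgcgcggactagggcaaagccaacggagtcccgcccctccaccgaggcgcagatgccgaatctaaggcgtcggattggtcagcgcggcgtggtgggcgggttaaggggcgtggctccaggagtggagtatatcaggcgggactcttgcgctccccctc
Hnrnpa0, chr13:58128557-58128806, minus strand: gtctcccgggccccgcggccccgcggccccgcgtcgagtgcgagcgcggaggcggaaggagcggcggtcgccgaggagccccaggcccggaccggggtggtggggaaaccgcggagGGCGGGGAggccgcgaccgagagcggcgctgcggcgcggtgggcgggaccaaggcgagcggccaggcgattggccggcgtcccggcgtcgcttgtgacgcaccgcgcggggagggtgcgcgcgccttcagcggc
Snrpf, chr10:93589659-93589908, minus strand: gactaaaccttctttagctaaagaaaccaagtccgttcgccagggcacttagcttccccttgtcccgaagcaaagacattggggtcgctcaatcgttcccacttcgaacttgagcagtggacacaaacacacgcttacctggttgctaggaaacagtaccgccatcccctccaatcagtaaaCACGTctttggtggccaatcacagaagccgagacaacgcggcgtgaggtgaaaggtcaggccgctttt
Snrpd2, chr7:19149588-19149837, plus strand: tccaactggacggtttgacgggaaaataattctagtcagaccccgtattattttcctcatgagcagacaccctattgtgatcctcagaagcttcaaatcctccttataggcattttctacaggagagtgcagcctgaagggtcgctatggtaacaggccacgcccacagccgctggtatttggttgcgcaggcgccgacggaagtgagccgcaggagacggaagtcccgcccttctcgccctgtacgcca
The Cirbp and Hnrnpa0 windows hold the cold-response letters, the Snrpf window holds CACGT, and the Snrpd2 window holds neither. Sf3b4 and Rbm3 are named only. A promoter was listed for 80 of the 98 genes. On either strand, TCCCCGCC was in 6.25% of these 80 windows, in 8.19% of the windows of 6034 deposited genes and in 4.7% of all 27025 windows. ACGTG was in 24 of the 80 windows, in 20.3% of the windows of deposited genes and in 16.6% of all, and TGACGT, a cAMP response element core that overlaps ACGTG by its ACGT, was in 20 of the 80, 8.82% and 6.56%. A match describes the letters and not a bound site.

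Counts are given as normalized counts, the deposited count scaled to a common library size with TMM factors. Library totals ran from 8352355 to 11777101 in the control group, from 7568082 to 10578076 in the IH group and from 7203659 to 10480839 in the SH group. The splicing and RNA-binding genes held 1.93% to 2.05% of the counts in control libraries, 2.02% to 2.11% in IH libraries and 2.00% to 2.24% in SH libraries. The tissue label was checked against marker lists: CA1 and CA3 pyramidal markers (10 of 13 deposited) summed to between 34100 and 40370 in every library. Choroid plexus markers (18 of 18 deposited) spread widely in each group, from 4168 to 126700 in control, 5200 to 77350 in IH and 4860 to 94010 in SH. Dentate granule cell markers (9 of 10 deposited) summed to 10200 to 13090 in control, 14550 to 20840 in IH and 13070 to 21220 in SH, with 3 called higher in each exposure against control and median log2 FC of 0.51 and 0.40. Oligodendrocyte markers (10 of 11 deposited) summed to 76720 to 112600 in control, 88110 to 198800 in IH and 86900 to 149400 in SH, with median log2 FC of 0.34 and 0.35 against control. Of these 10 markers, 0 were called in any comparison. In bulk tissue, fewer cells of a type and less RNA per cell cannot be told apart. Erythrocyte markers (5 of 6 deposited) were lower in IH, with 4 of 4 tested called and sums of 1649 to 2304 against 2926 to 3189 in control and 2203 to 3081 in SH. Microglial markers (6 of 10 deposited) had 3 lower calls in SH vs. control and 1 higher in IH vs. SH, with sums of 4866 to 5404 in control, 4494 to 5609 in IH and 3672 to 4535 in SH. Endothelial and pericyte markers (11 of 11) had 3 higher calls in SH vs. control and 1 lower in IH vs. SH. Mature neuron markers (4 of 10 deposited, Rbfox3 among them) summed to 27490 to 33070 in control, 24590 to 28620 in IH and 24860 to 26540 in SH, with 1 lower call in SH vs. control. The part of these cell type shifts in the values below was not tested, apart from a fit with the choroid plexus level as a covariate, which called 20, 37 and 4 of the splicing and RNA-binding genes for IH against control, SH against control and IH against SH, beside 10.2%, 19.8% and 2.38% of all genes.

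With an adjusted p under 0.05 in edgeR, over all genes tested, 22 of the 97 genes differed in the IH vs. control comparison, 14 higher and 8 lower in IH. That was 22.7%, against 10.9% of all genes tested (6.08% higher and 4.85% lower). In the SH vs. control comparison 38 differed, 25 higher and 13 lower in SH, which was 39.2% against 20.6% of all genes tested (10.2% higher and 10.5% lower). Between IH and SH, 4 differed: Snrpf and Sf3b4 were higher and Hnrnpa0 and Snrpd2 lower in IH, 4.12% against 2.37% of all genes tested (1.47% higher and 0.899% lower). The log2 fold change (FC) of the 97 genes had a median that was 0.05 for IH and 0.15 for SH against control, and -0.04 between IH and SH, beside -0.02, 0.0035 and -0.0039 over all genes tested. The log2 FC was above 0 for 53, 60 and 35 of the 97 genes in the same order, beside 48.3%, 50.4% and 48.9% of all genes. An unadjusted p under 0.05 was found for 38, 56 and 23 of them, beside 29.8%, 36.0% and 15.8%. IH and SH were set against the same control libraries. They shared 16 called genes, 72.7% of the IH list and 42.1% of the SH list, with 12 higher and 4 lower in both.

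**Figure D1:**
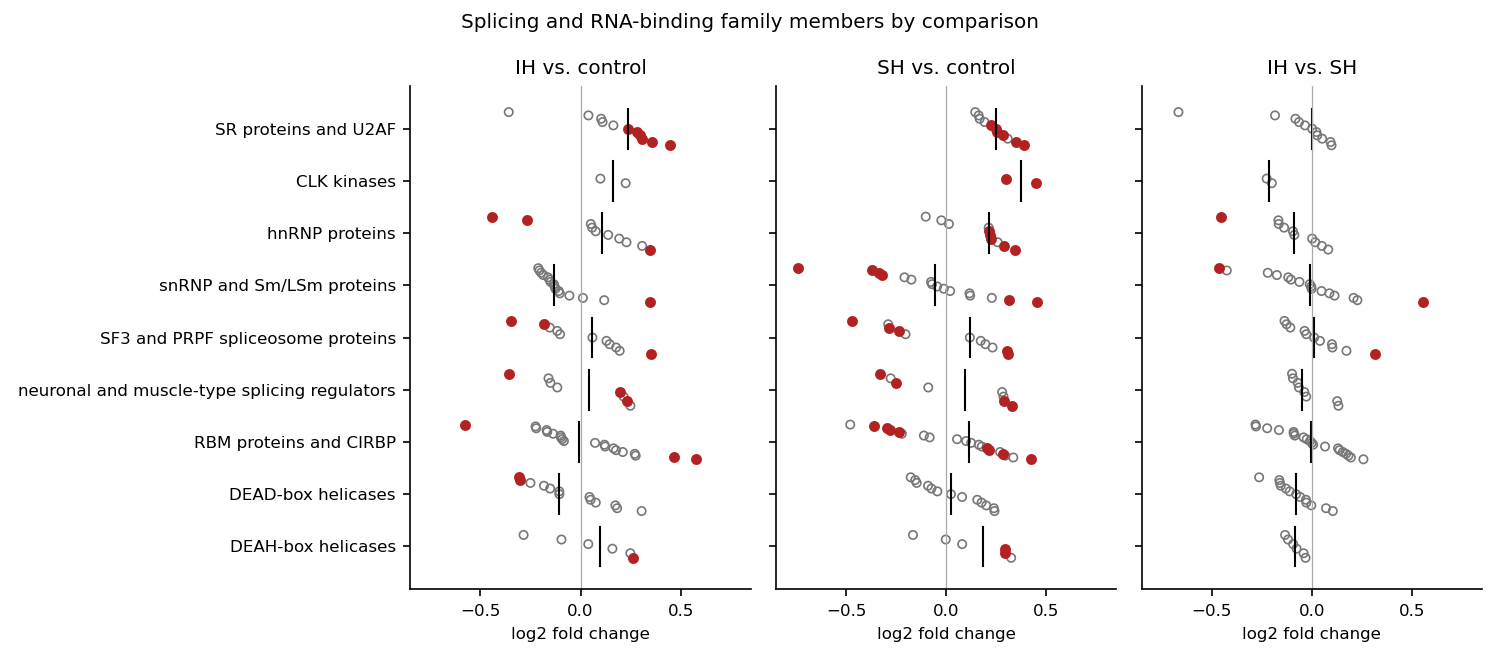
The log2 fold change (horizontal axis) of each of the 97 tested genes, by family (rows) in each comparison, with filled points for an adjusted p under 0.05, open points for the rest and a vertical bar at each family's median. In IH vs. control the 6 filled points of the SR family lie to the right, while the filled points of the snRNP family in SH vs. control, 2 higher and 4 lower, lie on both sides.

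Most changes were small. With the fold limits used in the study, a fold above 1.5 or below 0.67 with an unadjusted p under 0.05, Cirbp alone passed in IH vs. control (2.66% of all genes tested did), Snrpf alone in SH vs. control (2.73%) and U2af1l4 alone between IH and SH (0.981%). Cirbp lay at the limit, with a fold of 0.669. At a log2 FC beyond 0.58 it did not pass (2.68% and 2.71% of all genes did in the control comparisons), while with scaling by the 80th percentile its log2 FC was -0.591. U2af1l4, a U2AF-like splice site protein, was counted at 104.5, 95.63, 149.1, 135.5 and 145.6 in IH and at 160.7, 310.4, 188.3, 197.4 and 144.9 in SH. The groups overlapped, its adjusted p was 0.152, and exons of Gm49396 on the same strand cover 65.5% of its exon bases. The libraries of IH and control did not overlap for 17 genes that were higher and 12 that were lower in IH, beside 7.66% and 7.48% of all genes tested. For SH against control the counts were 19 higher and 13 lower, beside 8.76% and 10.6%. For IH against SH they were 3 higher and 6 lower, beside 2.63% and 1.83% (4.46% in either direction).

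**Figure D2:**
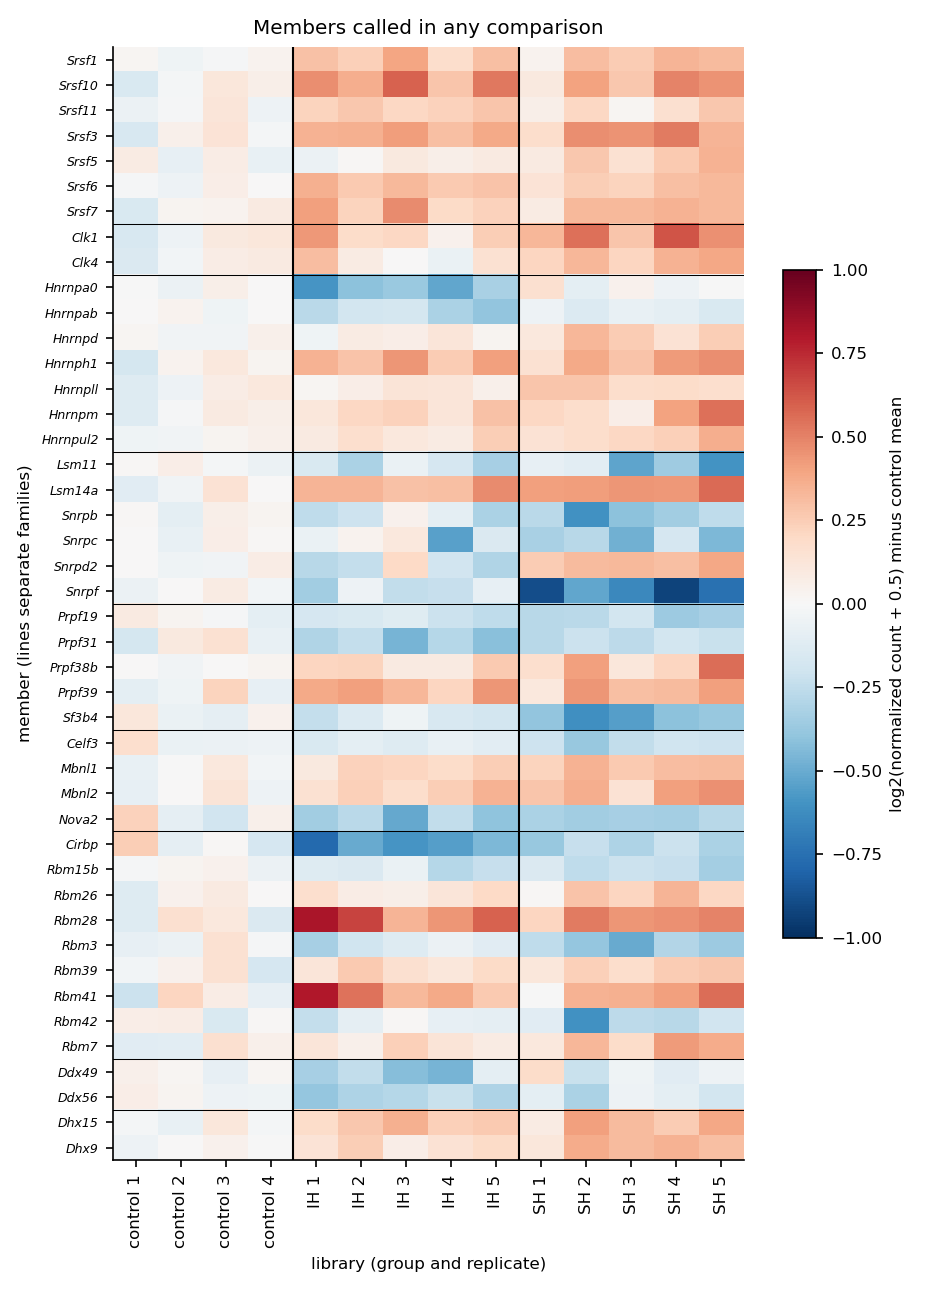
Each row is one of the 44 genes with an adjusted p under 0.05 in any comparison, each column 1 library, and the colour gives log2(normalized count + 0.5) minus the mean of the control libraries, from -0.929 (blue) to 0.819 (red). Hnrnpa0 and Cirbp are darkest blue in the IH columns and Snrpf in the SH columns, while Lsm14a and Srsf3 are red in the IH and SH columns.

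The direction of change differed with the base composition of the transcripts. Median GC content was 46.42% for the 97 genes and 50.98% for all genes tested. Among the 49 genes at or below the median of 46.42%, 11 were called higher and 0 lower in IH vs. control, while among the 48 above it 3 were called higher and 8 lower. Over all genes tested, 13.3% at or below the same GC content were called higher and 0.652% lower, and 3.09% and 6.61% above it. For SH vs. control the low-GC genes split 17 higher and 2 lower, and the high-GC genes 8 higher and 11 lower, beside 22.7% higher and 1.21% lower of all low-GC genes and 4.96% and 14.4% of all high-GC genes. Across the 97 genes, log2 FC and GC content had Pearson's r = -0.563 for IH against control, -0.48 for SH against control and -0.0445 for IH against SH, as a description over genes that share the same libraries. The same correlation over the 7293 tested genes with a known GC content was -0.419, -0.505 and 0.148, so a relation with GC content was present in the whole table for both control comparisons. The libraries themselves differed in this slope: counts changed by 0.022 to 0.220 on the log2 scale per 10% GC content in control libraries, by -0.055 to 0.006 in IH libraries and by -0.166 to 0.049 in SH libraries.

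With each library's trends with GC content and transcript length removed, 15 of the 97 genes differed in IH vs. control, 5 higher and 10 lower, beside 4.81% of all genes tested. In SH vs. control 14 differed, 6 higher and 8 lower, beside 5.48% of all genes, and in IH vs. SH 5 differed, beside 2.17%. With both trends removed, which is what trends removed means for each gene below, 11 of the 22 original calls remained for IH: Srsf3, Srsf10, Hnrnph1, Lsm14a and Rbm28 higher, and Cirbp, Hnrnpa0, Hnrnpab, Nova2, Prpf31 and Ddx56 lower. For SH, 11 of 38 remained: Srsf3, Clk1, Hnrnph1, Lsm14a, Snrpd2 and Mbnl2 higher, and Snrpf, Sf3b4, Prpf19, Nova2 and Rbm3 lower. The 4 calls between IH and SH all remained. With the GC content trend alone removed, the counts were 12, 12 and 5, beside 4.85%, 5.4% and 1.92% of all genes. Of the original calls, 9 of 22 remained for IH and 10 of 38 for SH under that setting. Leaving out control replicate 1 or control replicate 2 lowered the IH count to 12 and 13, beside 5.56% and 5.26% of all genes, and the SH count to 24 and 25, beside 12.4% and 13.3%.

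**Figure D3:**
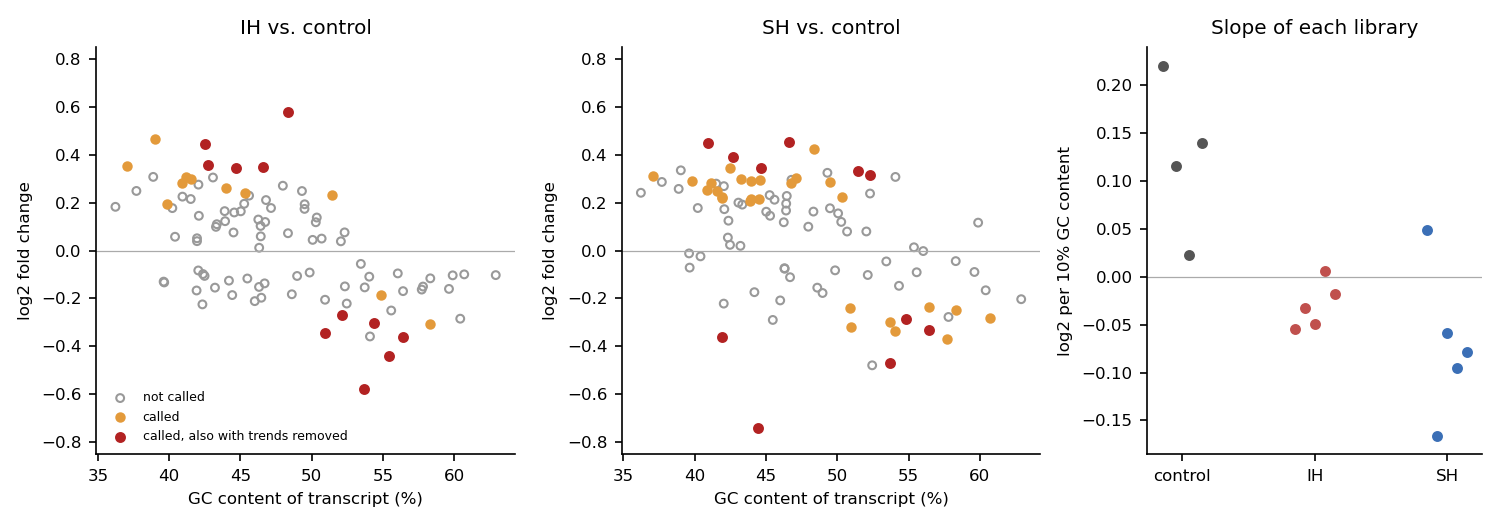
The left and middle panels plot log2 fold change against the GC content (%) of each gene's transcript for IH vs. control and SH vs. control, with open points for genes not called, orange for called and red for those also called with the trends removed. The right panel gives each library's slope in log2 units per 10% GC content: control slopes lie from 0.022 to 0.220 and IH slopes from -0.055 to 0.006.

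Hnrnpa0 encodes a small hnRNP protein that binds AU-rich elements in messages as well as nuclear RNA (chr13:58273693-58276370, minus strand, GRCm39). It was counted at 3262, 3128, 3402 and 3263 in the control libraries, at 2164, 2454, 2520, 2273 and 2600 in the IH libraries, and at 3647, 3052, 3363, 3150 and 3262 in the SH libraries. Every IH library was below every control and SH library, and the control and SH ranges overlapped. Hnrnpa0 fell by 0.44 on the log2 scale in IH vs. control (SE 0.0645, adjusted p = 0.00101) and by 0.46 in IH vs. SH (SE 0.0612, adjusted p = 0.00122). In SH vs. control the log2 FC was 0.01 (SE 0.0646, adjusted p = 0.902). It had the smallest p among the 97 genes between IH and SH, and the adjusted p of that comparison ranged from 3.35e-08 to 0.00958 over the alternative analyses.

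Sm proteins form the heptameric ring around each spliceosomal small nuclear RNA, and 6 of its 7 genes were deposited: Snrpb, Snrpd1, Snrpd2, Snrpe, Snrpf and Snrpg. Snrpf, which encodes SmF (chr10, minus strand), was counted at 313.9, 327.4, 345.5 and 319.9 in control, at 257.1, 315.8, 275.5, 278.3 and 309.1 in IH, and at 176.5, 227.4, 209, 171.2 and 194.1 in SH. All SH libraries were below all others. Snrpf fell by 0.74 on the log2 scale in SH vs. control (SE 0.103, adjusted p = 0.000552) and was higher in IH than in SH by 0.55 (SE 0.0987, adjusted p = 0.0103). Exons of Ccdc38, on the opposite strand, cover 61.4% of the annotated exon bases of Snrpf. Ccdc38 itself was counted at 13.12 to 51.86 across the 14 libraries, well below Snrpf, and whether the counting used strand is not given in the sources used here.

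Snrpd2 encodes SmD2, the neighbour of SmF in the ring. Its counts were 744.4, 718.6, 725.9 and 780.2 in control, 613.4, 628.2, 854, 649.8 and 602 in IH, and 884, 925.1, 927.1, 913.3 and 968.5 in SH. SH libraries were all above the rest, whereas 4 of 5 IH libraries were below control and the remaining one, IH replicate 3, was above it. Snrpd2 rose in SH vs. control by 0.32 (SE 0.0909, adjusted p = 0.0244) and was lower in IH than in SH by a log2 FC of -0.47 (SE 0.0858, adjusted p = 0.012). The SH vs. control call was lost with GC content alone removed (adjusted p = 0.0582) and without control replicate 1, 2 or 3 or SH replicate 5, with adjusted p up to 0.0686. A stretch 99.1% identical over 466 bases lies on chr10, so reads may be split between the copies. The ratio of Snrpd2 to Snrpf counts was 2.1 to 2.44 in control libraries, 1.95 to 3.1 in IH libraries and 4.07 to 5.34 in SH libraries, given as a description because the pair was chosen after its values were seen.

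Snrpb, encoding SmB, was counted at 1124, 1040, 1164 and 1138 in control, at 936.3, 965.2, 1149, 1041 and 897.4 in IH, and at 926, 734.5, 839.6, 878.3 and 936.6 in SH. SH libraries were all below control. Snrpb fell by 0.37 in SH vs. control (adjusted p = 0.008), with an adjusted p of 0.199 once the trends were removed (0.0014 to 0.199 over the alternatives), and its log2 FC in IH vs. control was -0.16 (adjusted p = 0.209). Snrpd1, Snrpe and Snrpg did not pass the test in any comparison. Snrpe and Snrpg each have near-identical stretches elsewhere in the genome.

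Sf3b4 encodes a subunit of the SF3b complex, which holds U2 snRNP at the branch point. It was counted at 1011, 894.4, 881.6 and 966.3 in control, at 795.2, 851.7, 908.8, 836.1 and 825.1 in IH, and at 712, 613.7, 640.3, 704.7 and 718.9 in SH. SH libraries lay below all IH and control libraries. Sf3b4 fell by 0.47 in SH vs. control (SE 0.0708, adjusted p = 0.000771). It was higher in IH than in SH by 0.31 (SE 0.0673, adjusted p = 0.0244). This last call was lost when only the 2 groups were fitted or when IH replicate 2, 3 or 4 or SH replicate 2 or 3 was left out, with adjusted p up to 0.0666. A stretch 99.2% identical over 1550 bases lies on chr15.

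**Figure D4:**
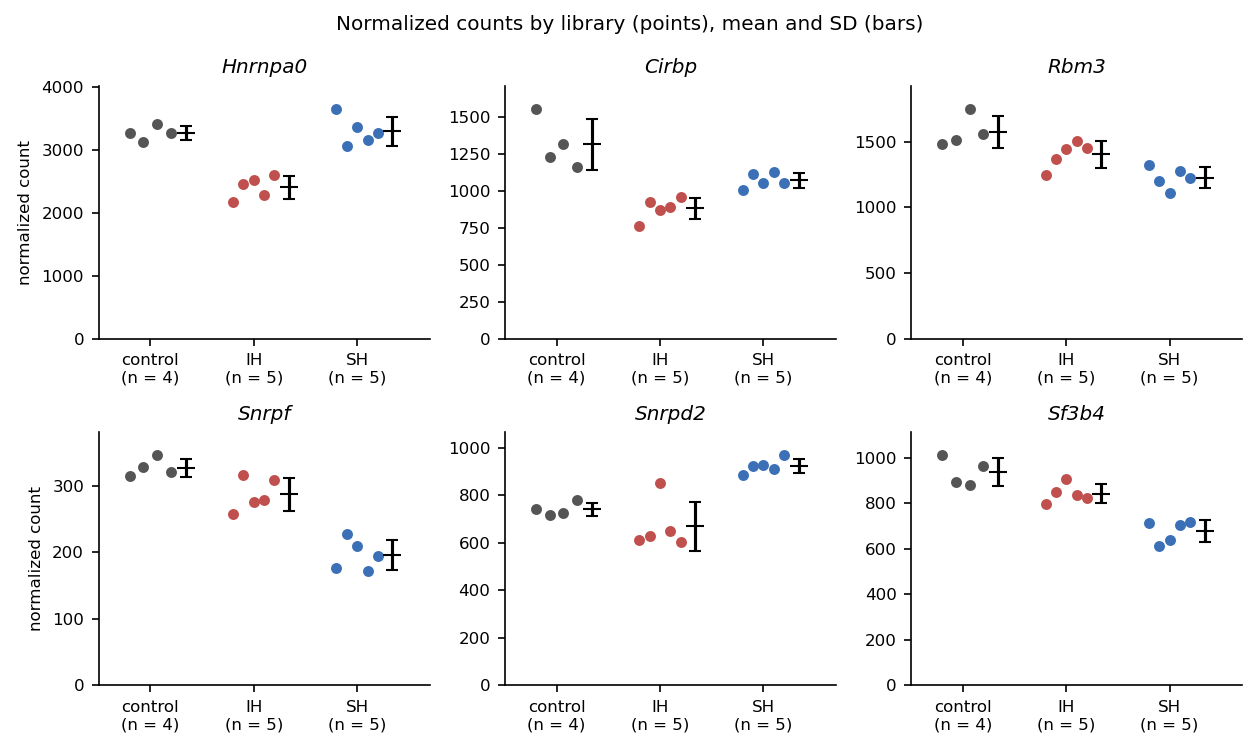
Normalized counts (vertical axes, from 0) of Hnrnpa0, Cirbp, Rbm3, Snrpf, Snrpd2 and Sf3b4 in each library (points) by group, with the mean and SD of the group (bars). Hnrnpa0 is low in IH alone, Snrpf and Sf3b4 are lowest and Snrpd2 highest in SH, and Cirbp is lowest in IH.

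Cirbp and Rbm3 encode cold-inducible RNA-binding proteins, glycine-rich proteins whose messages rise at mild hypothermia. Cirbp (chr10, plus strand) was counted at 1555, 1229, 1315 and 1164 in control, at 762.8, 921.8, 870.7, 893.3 and 955.3 in IH, and at 1004, 1116, 1056, 1127 and 1053 in SH. The groups did not overlap, with control highest, SH between and IH lowest. Cirbp fell by 0.58 on the log2 scale in IH vs. control (SE 0.0861, adjusted p = 0.0012), the largest decrease among the 97 genes in that comparison. In SH vs. control it fell by 0.30 (SE 0.086, adjusted p = 0.0247), a call that was lost with the trends removed (adjusted p = 0.237; 0.0123 to 0.237 over the alternatives). The IH vs. SH difference of -0.28 did not pass the test in edgeR (adjusted p = 0.0916), while DESeq2 gave an adjusted p of 0.0459, and the range over the alternatives was 0.0459 to 0.182. Exons of an antisense long non-coding RNA cover 24.5% of the Cirbp exon bases.

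Rbm3 was counted at 1484, 1512, 1751 and 1560 in control, at 1247, 1369, 1442, 1510 and 1456 in IH, and at 1321, 1203, 1108, 1281 and 1222 in SH. Its SH libraries were all below control, while IH overlapped both. Rbm3 fell by 0.36 in SH vs. control (SE 0.0735, adjusted p = 0.0045). The log2 FC in IH vs. control was -0.17 (adjusted p = 0.142). With the trends removed it was -0.35 in IH vs. control (adjusted p = 0.0208) and -0.56 in SH vs. control (adjusted p = 0.000904). Rbm3 did not pass the test between IH and SH (adjusted p = 0.171).

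SR proteins carry arginine- and serine-rich domains and recruit the spliceosome to exons. Of the 11 SR, LUC7-like and U2AF genes, 6 rose and none fell in each of the control comparisons, with median log2 FC of 0.24 in IH and 0.25 in SH. Called higher were 6.08% and 10.2% of all genes tested, and 13.3% and 22.7% of all those at or below a GC content of 46.42%. Srsf1, Srsf3, Srsf6, Srsf7 and Srsf10 rose in both, Srsf11 in IH vs. control and Srsf5 in SH vs. control. With the trends removed, 2 remained in IH (Srsf3 and Srsf10) and 1 in SH (Srsf3). The median GC content of this family was 42.7%. In edgeR 0 of the 11 passed the test between IH and SH, where 2 had an unadjusted p under 0.05 and DESeq2 called 0.

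Srsf3 encodes the smallest SR protein and was called in both exposures, also with both trends removed, but not in IH with GC content alone removed (adjusted p = 0.051, the highest over its alternatives). It was counted at 2383, 2768, 2928 and 2628 in control, at 3390, 3414, 3574, 3294 and 3466 in IH, and at 3011, 3688, 3654, 3823 and 3375 in SH. No control library reached the IH or SH range. Srsf3 rose by 0.36 in IH (SE 0.0722, adjusted p = 0.00733) and by 0.39 in SH (SE 0.0722, adjusted p = 0.00272). It has 4 near-identical stretches elsewhere in the genome, the closest 99.3% identical over 917 bases on chr3, so its level is uncertain.

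Srsf10, an SR protein that represses splicing when dephosphorylated, was counted at 1364, 1495, 1645 and 1584 in control, at 2090, 1955, 2283, 1838 and 2192 in IH, and at 1621, 2002, 1832, 2143 and 2078 in SH. IH did not overlap control, while SH replicate 1 lay within it. Srsf10 rose by 0.44 in IH (SE 0.0887, adjusted p = 0.00689), the most of its family, and by 0.35 in SH (SE 0.0886, adjusted p = 0.0141). A copy 97.5% identical over 2711 bases lies on chr13. Srsf6, which has no such copy, was counted at 2863 to 3098 in control, 3548 to 3797 in IH and 3256 to 3718 in SH, and rose by 0.30 and 0.25 (adjusted p = 0.00246 and 0.00435). Its adjusted p with the trends removed was 0.196 in IH and 0.673 in SH, the highest of its alternatives. Srsf5 had the highest count per kilobase of transcript in the family, 3780 as the mean over all libraries. It rose by 0.22 in SH (adjusted p = 0.0224), and its log2 FC in IH was 0.04 (adjusted p = 0.701). A copy of Srsf5 98.3% identical over 1488 bases lies on chr4. Exons of an antisense long non-coding RNA also overlap the Srsf5 exons, so its level is uncertain.

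Of the CLK kinases, which phosphorylate SR proteins and release them from nuclear speckles, Clk1 and Clk4 were deposited. Clk1 was counted at 2203, 2379, 2638 and 2658 in control, at 3329, 2797, 2848, 2533 and 2926 in IH, and at 3092, 3605, 2988, 3802 and 3389 in SH. All SH libraries were above control, while IH replicate 4 lay within the control range. Clk1 rose by 0.45 in SH (SE 0.0886, adjusted p = 0.00378) and kept an adjusted p under the threshold with the trends removed (0.0262). Its log2 FC in IH was 0.23 (adjusted p = 0.104). Clk4 was counted at 1473, 1596, 1714 and 1727 in control and at 1885, 2050, 1880, 2070 and 2123 in SH, and rose by 0.30 (adjusted p = 0.0149). With the trends removed, Clk4 had an adjusted p of 0.144, and 0.193 was the highest over its alternatives. The difference between IH and SH was -0.23 for Clk1 and -0.20 for Clk4, and neither passed the test (adjusted p = 0.186 and 0.18).

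The hnRNP and PTBP family had 10 tested genes, with 1 higher and 2 lower in IH vs. control and 5 higher in SH vs. control. Over all genes tested, 6.08% were called higher and 4.85% lower in IH, and 10.2% higher and 10.5% lower in SH. Hnrnph1, which binds G-rich stretches and had the highest count per kilobase of the family (2737), rose in both. Its counts were 4903, 5664, 5944 and 5643 in control, 7022, 6714, 7502, 6580 and 7351 in IH, and 6152, 7166, 6744, 7440 and 7626 in SH. Control libraries were below all others. Hnrnph1 rose by 0.34 in IH (SE 0.0734, adjusted p = 0.00975) and by 0.34 in SH (SE 0.0734, adjusted p = 0.0058). Both calls held with the trends removed, and both were lost with GC content alone removed (adjusted p = 0.053 and 0.0769, the highest over the alternatives). Hnrnpab, a member of the hnRNP A/B group, was counted at 3241 to 3432 in control, 2535 to 2958 in IH and 3012 to 3218 in SH. It fell by 0.27 in IH (SE 0.0521, adjusted p = 0.00604), and its log2 FC in SH was -0.10 (adjusted p = 0.173). Exons of Phykpl on the opposite strand cover 35.5% of the Hnrnpab exon bases. In SH, Hnrnpd, Hnrnpll, Hnrnpm and Hnrnpul2 rose by 0.21 to 0.29, and none of these 4 passed with the trends removed.

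Among the snRNP and Sm/LSm genes (16 tested), 1 was higher in IH vs. control, and 2 were higher and 4 lower in SH vs. control. The share called was 6.25% in IH, below the 10.9% of all genes tested, and 37.5% in SH, beside 20.6%. Lsm14a, whose protein sits in cytoplasmic P-bodies and acts in message decay and storage, was the gene called in both. It was counted at 1102, 1168, 1318 and 1198 in control, at 1515, 1509, 1463, 1470 and 1659 in IH, and at 1584, 1598, 1625, 1609 and 1771 in SH. Every IH and SH library exceeded every control library. Lsm14a rose by 0.35 in IH (SE 0.0647, adjusted p = 0.00447) and by 0.45 in SH (SE 0.0648, adjusted p = 0.000619), and its highest adjusted p over the alternatives was 0.0202 and 0.00476. Of the genes that are part of the U snRNPs, Snrpc, encoding U1-C, fell by 0.34 in SH (adjusted p = 0.0454), with 5 near-identical stretches elsewhere. Lsm11, a subunit of the U7 snRNP that processes histone messages, fell by 0.32 (adjusted p = 0.038). Neither held with the trends removed, where the log2 FC of Lsm11 was -0.37, no smaller than before (adjusted p = 0.061). Snrpn, an imprinted neuronal gene of the SmB type, had the highest count per kilobase of the 97 genes, 3909. Its counts were 14710 to 16140 in control, 13280 to 15950 in IH and 14470 to 15220 in SH, and it was not called in any comparison (adjusted p = 0.143, 0.408 and 0.671). With the trends removed it was lower in both exposures than in control, by a log2 FC of -0.34 in IH and -0.29 in SH (adjusted p = 0.0154 and 0.0297, up to 0.272 and 0.583 over the alternatives).

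The 11 SF3 and PRPF genes held 1 higher and 2 lower calls in IH vs. control and 2 higher and 3 lower in SH vs. control. Called were thus 27.3% and 45.5% of the 11, beside 10.9% and 20.6% of all genes tested. Prpf19, a ubiquitin ligase of the complex that activates the spliceosome, was counted at 3727, 3565, 3468 and 3272 in control, at 3114, 3151, 3220, 3018 and 2934 in IH, and at 2888, 2901, 3077, 2724 and 2786 in SH. Control was above all other libraries. Prpf19 fell by 0.18 in IH (SE 0.0529, adjusted p = 0.0374) and by 0.29 in SH (SE 0.0529, adjusted p = 0.00265). Prpf31, which joins U4/U6 to U5 in the tri-snRNP, was counted at 748, 901.1, 935.8 and 800.9 in control, at 611.8 to 712.8 in IH and at 696.2 to 742.2 in SH. It fell by 0.35 in IH (SE 0.0754, adjusted p = 0.0105) and by 0.24 in SH (SE 0.0754, adjusted p = 0.0372). The IH call of Prpf31 and the SH call of Prpf19 held with the trends removed, and the other call of each did not. For Prpf31 in SH the log2 FC was then -0.26, as large as before (adjusted p = 0.0686). Prpf39, a U1 snRNP factor with a GC content of 37.05%, rose by 0.35 in IH (adjusted p = 0.0149) and by 0.31 in SH (adjusted p = 0.0175), and Prpf38b rose by 0.30 in SH (adjusted p = 0.0184). None of these held with the trends removed.

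Neuronal and muscle-type regulators numbered 8, and the NOVA pair differed in sign. Nova2 encodes the NOVA protein of forebrain neurons and binds YCAY repeats. It was counted at 4315, 3457, 3220 and 3820 in control, at 2898, 3047, 2587, 3108 and 2791 in IH, and at 2949, 2889, 2930, 2912 and 3032 in SH. All IH and SH libraries were below control. Nova2 fell by 0.36 in IH (SE 0.0756, adjusted p = 0.00902) and by 0.33 in SH (SE 0.0756, adjusted p = 0.00771). Both calls held with the trends removed, and the SH call was lost with GC content alone removed (adjusted p = 0.0773, the highest over its alternatives). Nova1 was counted at 799 to 858.6 in control, 782.7 to 1124 in IH and 894.5 to 1214 in SH. Its log2 FC of 0.22 and 0.28 did not pass the test (adjusted p = 0.193 and 0.0768). GC content was 56.4% for the Nova2 transcript and 41.51% for that of Nova1.

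The muscleblind genes, whose proteins move splicing toward adult patterns, were both higher than in control. Mbnl2, with the family's highest count per kilobase (2747), was counted at 5125, 5438, 5933 and 5247 in control, at 6033, 6403, 6126, 6443 and 6916 in IH, and at 6582, 6964, 5992, 7212 and 7436 in SH. Each IH and SH library exceeded the control range. Mbnl2 rose by 0.23 in IH (SE 0.0691, adjusted p = 0.0429) and by 0.33 in SH (SE 0.0692, adjusted p = 0.00531), and the SH call held with the trends removed. The IH call was lost in 12 of the 25 alternatives, among them those trends (log2 FC 0.25, as large as before, adjusted p = 0.0583) and the replicate block (0.0691), with 0.0163 to 0.12 over all of them. Mbnl1 rose by 0.20 in IH (adjusted p = 0.0282) and by 0.29 in SH (adjusted p = 0.00262), and neither held with the trends removed. The log2 FC of Mbnl1 was then -0.0186 in IH, a change of sign, and 0.0558 in SH (adjusted p = 0.883 and 0.576). Celf3, a brain CELF protein, fell by 0.25 in SH (adjusted p = 0.0085), with an adjusted p of 0.314 with the trends removed and up to 0.387 over the alternatives. Rbfox3, known as the neuronal marker NeuN, was counted at 5798 to 6119 in control, 4606 to 5657 in IH and 4975 to 6605 in SH. Its log2 FC was -0.16 in IH and -0.09 in SH, and neither passed the test (adjusted p = 0.182 and 0.436). Elavl4, which encodes the neuronal message stabilizer HuD, did not pass it either, with log2 FC of 0.25 and 0.29 (adjusted p = 0.203 and 0.122).

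Among the 20 tested RBM genes with Cirbp, 2 were higher and 1 lower in IH vs. control, and 4 were higher and 4 lower in SH vs. control. The shares of all genes tested were 6.08% higher and 4.85% lower in IH, and 10.2% and 10.5% in SH. Rbm28, the nucleolar homologue of yeast Nop4 and a component of spliceosomal snRNPs, was counted at 1124, 1369, 1322 and 1111 in control, at 2163, 1959, 1552, 1668 and 1845 in IH, and at 1422, 1758, 1661, 1680 and 1732 in SH. Control libraries were all below the others. Rbm28 rose by 0.58 in IH (SE 0.1, adjusted p = 0.00302), the largest increase among the 97 genes in that comparison, and by 0.42 in SH (SE 0.0999, adjusted p = 0.0093). The IH call held with the trends removed, and the SH call did not (log2 FC 0.33, adjusted p = 0.0578, the highest over its alternatives). Rbm41 was counted at 151.1, 203.8, 184.4 and 165.4 in control and at 305.1, 255.7, 219.5, 227.5 and 209.5 in IH. It rose by 0.47 with an adjusted p of 0.04999979, at the threshold itself, and 0.0236 to 0.266 over the alternatives.

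In SH, Rbm7, Rbm26 and Rbm39 rose by 0.21 to 0.28 and Rbm42 and Rbm15b fell by 0.28 and 0.24, and none of these 5 held with the trends removed. Rbm39, an SR-like splicing factor, had the highest count per kilobase of the RBM genes, 1861. Exons of Manf on the same strand cover 60.9% of the exon bases of Rbm15b, and those of the long non-coding RNA Gm21982 on the same strand cover 64.3% of those of Rbm42, so both counts are uncertain. Manf rose by 0.72 in IH and by 0.42 in SH (adjusted p = 0.000625 and 0.00919), the opposite sign to Rbm15b.

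DEAD-box and DEAH-box helicases unwind RNA duplexes, in the spliceosome and in ribosome assembly. Ddx56 and Ddx49, 2 of the 13 DEAD-box genes (15.4%, beside 10.9% of all genes tested) and both factors of ribosome assembly, fell in IH vs. control. Ddx56 was counted at 632.4, 615.2, 581.8 and 584.3 in control, at 460.8, 488.1, 495, 515.4 and 487 in IH, and at 563.4, 483.5, 582, 564.7 and 531.2 in SH. IH was below control throughout, and SH overlapped both. Ddx56 fell by 0.30 (SE 0.0711, adjusted p = 0.0146), and Ddx49 by 0.31 (SE 0.0922, adjusted p = 0.0443). Ddx56 alone held with the trends removed (adjusted p = 0.0452, and up to 0.0505 over the alternatives). The Ddx49 call was also lost with scaling by the library total and with only the 2 groups fitted. Leaving out any 1 control library, IH replicate 1, 2, 3 or 4, or SH replicate 3, 4 or 5 lost it too. Over the alternatives the adjusted p of Ddx49 was 0.0245 to 0.226. Exons of Homer3 on the opposite strand cover 29.9% of the Ddx49 exon bases. In SH vs. control, edgeR called 0 of the 13 (beside 20.6% of all genes tested), 3 had an unadjusted p under 0.05, and DESeq2 called 0. Ddx3x, which had the highest count per kilobase of these helicases (1031) and acts in translation initiation, had a log2 FC of -0.11 in IH and 0.02 in SH (adjusted p = 0.211 and 0.792). It was lower in both with the trends removed, by a log2 FC of -0.28 in IH and -0.17 in SH (adjusted p = 0.00398 and 0.0461; 0.00398 to 0.477 and 0.0461 to 0.946 over the alternatives).

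Of the 6 DEAH-box genes, Dhx15, the helicase that takes apart the spent intron complex, rose in both exposures. It was counted at 1827 to 2075 in control, 2187 to 2457 in IH and 2032 to 2560 in SH, with log2 FC of 0.26 and 0.29 (adjusted p = 0.0242 and 0.00864). Dhx9, which unwinds RNA and DNA structures, was counted at 2840 to 3027 in control, 3079 to 3477 in IH and 3175 to 3801 in SH. It rose by 0.29 in SH (SE 0.057, adjusted p = 0.00364), and its log2 FC in IH was 0.16 (adjusted p = 0.0799). None of the calls of Dhx15 and Dhx9 held with the trends removed.

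Several genes varied within groups more than between them. Hnrnpa3, an hnRNP A/B protein, was counted at 2653, 165.2, 3236 and 205.7 in control, at 3519, 176.8, 3708, 366.2 and 414.7 in IH, and at 3269, 3659, 200.5, 333.6 and 232.3 in SH. Its libraries fell into a set of 8 between 165.2 and 414.7 and a set of 6 between 2653 and 3708, with 2 of the 6 in each group. A stretch 99.3% identical over 5216 bases lies on chr4, and 3 more copies lie on chr16 and chrX. The part of these copies in the split was not tested. Rbm12b1 was counted at 103.4 in IH replicate 2 and at 351.6 to 550.7 in the other libraries, with a copy 95.9% identical over 3071 bases elsewhere on chr4.

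Rbm47, an RNA-binding protein of epithelia, ran from 7.29 to 165.4. Its 4 highest libraries, control replicate 4 (165.4), IH replicate 4 (161.9), SH replicate 1 (142.4) and IH replicate 1 (102.4), were also the 4 with the highest summed choroid plexus markers, 126700, 77350, 94010 and 70670. Rbm47 did not pass the test in any comparison (adjusted p = 0.843, 0.947 and 0.967).

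**Figure D5:**
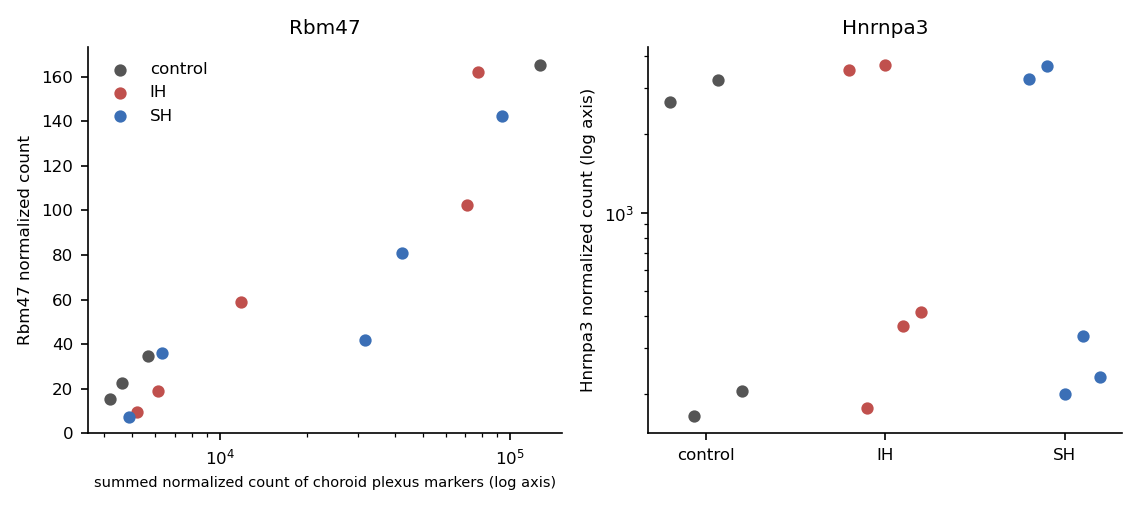
The left panel plots the normalized count of Rbm47 against the summed normalized count of 18 choroid plexus markers (log axis) in each library, coloured by group, and the right panel plots Hnrnpa3 (log axis) by group. Rbm47 is highest, 102.4 to 165.4, in the 4 libraries with the most choroid plexus signal, and Hnrnpa3 lies either at or below 414.7 or at or above 2653 in every group.

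Other RNA-processing genes were taken from 4 lists, of which 76 of 204 genes were deposited and tested. In IH vs. control 12 were called, 8 higher and 4 lower (15.8%, beside 10.9% of all genes tested), and in SH vs. control 20, 15 higher and 5 lower (26.3%, beside 20.6%). In each, 7 of the 76 were called with the trends removed (9.21%, beside 4.81% and 5.48%). Among 26 other splicing regulators and kinases, 5 rose in IH, and 7 rose and 3 fell in SH (19.2% and 38.5% called, beside the same 10.9% and 20.6%). Tra2a, an SR-like partner of the SR proteins, rose by 0.42 in IH (SE 0.0702, adjusted p = 0.00248) and by 0.37 in SH (SE 0.0701, adjusted p = 0.00298), and both calls held with the trends removed. Ythdc1, a nuclear reader of methylated adenosine, rose by 0.30 and 0.36 (adjusted p = 0.0104 and 0.0021), and Tia1, which promotes weak 5′ splice sites, by 0.29 and 0.29 (adjusted p = 0.0118 and 0.00669). With the trends removed, both calls of Tia1 and the IH call of Ythdc1 were lost. Ccnl2, a cyclin of nuclear speckles, rose by 0.30 in IH (adjusted p = 0.00981), and its log2 FC in SH was 0.13 (adjusted p = 0.142).

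Of 20 other core spliceosome genes, Zmat2, a tri-snRNP factor, was the one called, lower by a log2 FC of -0.23 in IH vs. control (adjusted p = 0.0477, up to 0.122 over the alternatives). This was 5.0% of the 20, beside 10.9% of all genes tested. In SH vs. control edgeR called 0 of the 20, beside 20.6% of all genes tested. There 4 of the 20 had an unadjusted p under 0.05 and DESeq2 called 0. Among 11 genes of the exon junction complex, export and nonsense-mediated decay, Upf2, a decay factor, rose in IH by 0.32 (adjusted p = 0.02), and Alyref, an export adaptor, fell by 0.30 (adjusted p = 0.049, up to 0.141 over the alternatives). The call of Upf2 was lost with the trends removed. In SH 4 of the 11 rose (36.4% called, beside 20.6% of all genes tested), among them Chtop by 0.26 (adjusted p = 0.00535, up to 0.057 over the alternatives).

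Cytoplasmic RNA-binding proteins (19 genes) held the 2 calls of these lists between IH and SH, 2.63% of the 76 genes, near the 2.37% of all genes tested. Ybx3, a cold-shock domain protein, had a log2 FC of -0.49 in IH vs. SH (SE 0.0794, adjusted p = 0.00699) and of -0.44 in IH vs. control (SE 0.0836, adjusted p = 0.00534), and 0.05 in SH vs. control (adjusted p = 0.713). Cpeb4, which controls polyadenylation of stored messages, was lower in IH than in SH by a log2 FC of -0.24 (SE 0.0481, adjusted p = 0.0166) and rose by 0.39 in SH vs. control (adjusted p = 0.000392). With the trends removed, Cpeb4 had an adjusted p of 0.139 for SH against control and 0.0232 between the exposures, the latter up to 0.065 over the alternatives. Ybx1, related to Ybx3, fell by 0.30 in IH and by 0.22 in SH (adjusted p = 0.0121 and 0.0328), and neither call held with the trends removed. The log2 FC of Ybx1 was then -0.25 in IH and -0.16 in SH (adjusted p = 0.0505 and 0.1745).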

How the data were processed

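Poly(A)-selected hippocampal RNA was sequenced with a directional kit. Per the labels, the authors used FastQC, bcl2fastq 2.19, fastp 0.23.4, HISAT2 2.2.1 and StringTie 2.2.1 with GRCm39, and deposited estimated counts for genes that passed a low-signal cutoff and a minimum size of the processed signal relative to control, so the table is selected for change, and family members outside it were not analysed here. Values in 10 gene rows were not whole and were rounded. Library totals ran from 7203659 to 11777101, and sampling error is largest for genes with low counts.

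The 7338 genes whose group means all reached 40 counts were fitted in edgeR 4.0.16 (R 4.3.3), with TMM factors, all 14 libraries in one fit, the quasi-likelihood test and Benjamini-Hochberg adjustment over all of them. Normalized counts are deposited counts divided by each library's TMM-scaled total, itself expressed relative to the mean of these totals. The labels do not say that libraries are separate animals, so p-values measure only the spread between them. On simulated counts for IH vs. control (7338 genes), 140 of 200 changed genes were recovered, with 6 false calls. The recovery is not split by size of change, and the rate for changes as small as most of those above was not tested. No libraries within a group were duplicates (lowest chi-square per degree of freedom 8.96 over 26 pairs).

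Alternatives (25 settings) included DESeq2 1.42.0, other scalings and filters, a replicate block, leaving out each library, a choroid plexus covariate, and removing loess trends with GC content and length (fitted in R and entered as offsets in edgeR). Removing GC content or length alone, and the study's limits as folds, were added after the data were seen. Near-identical copies (at least 95% over 300 bases) were found with minimap2 2.31, for 11 of the genes.

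Genes named were, in each comparison, the 10 with the largest change in each direction among those called, the 5 with the smallest p where fewer than 5 were called, the highest count per kilobase in each family, a preset list of regulators, and, in other lists, the 3 with the smallest p per comparison. Remaining genes were named after their values were seen. Members and lists were chosen with earlier results of these data known. Some genes that this rule names are not reported here.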

Additional observations from a re-analysis of the deposited data

Results flagged for a closer look

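Single libraries stood apart from the rest of their group in 8 of 117 groups of values tested, which included the counts of 38 named genes. The test took the gap to the nearest library, and chance alone passes it in about 1 of 20 groups. Lsm14a was counted at 1659 in IH replicate 5 (others 1463 to 1515) and at 1771 in SH replicate 5 (others 1584 to 1625). Srsf7 was counted at 2281 in SH replicate 1 (others 2696 to 2736), and Rbm28 at 1422 in the same library (others 1661 to 1758). Snrpd2 was counted at 854 in IH replicate 3, with the other IH libraries at 602 to 649.8. Rbfox3 was counted at 4606 in IH replicate 1 (others 5364 to 5657). In the control group, Prpf39 was counted at 1660 in replicate 3 (others 1324 to 1375) and Snrpn at 14710 in replicate 4 (others 15930 to 16140).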

How the results depend on the processing

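With the GC content and length trends removed, the median log2 FC of the 97 genes was -0.0237 in IH vs. control and 0.0384 in SH vs. control, and SH vs. control had 14 calls. With GC content alone removed, the medians were -0.0128 and 0.0515 and each comparison had 12 calls. Leaving out one library gave 12 to 24 calls in IH vs. control and 24 to 43 in SH vs. control, lowest without control replicate 1 (12 and 24) and next without control replicate 2 (13 and 25), and 3 to 4 in IH vs. SH. Over all genes tested, the calls of the same fits made up 5.26% to 13.3%, 12.4% to 23.8% and 1.20% to 2.43%. A log2 FC beyond 0.58 with an unadjusted p under 0.05 gave 0, 1 and 1, and a fold above 1.5 or below 0.67, added after the data were seen, gave 1, 1 and 1 with either scaling. Ddx3x had a log2 FC of -0.171 in SH vs. control with both trends removed (adjusted p = 0.0461), against 0.02, and of -0.278 in IH vs. control (adjusted p = 0.00398), against -0.11. Of the values of single genes under the alternatives, 2636 stayed on the same side of the threshold (39 of these, not called in either fit, changed sign), 195 lost their call, 18 gained one and 1 reversed. The cause was not tested.

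Groups share replicate numbers, but same-numbered libraries correlated at -0.303 to 0.458, with 6 of 13 pairs above 0.1, so the numbers were not taken as pairs. With the replicate number as a block, calls were 20, 34 and 4, beside 10.1%, 19.7% and 2.02% of all genes, and medians were 0.0472, 0.144 and -0.0375.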
